A study of Arabidopsis thaliana with 12 samples.

Results

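The mitochondrial genome of Arabidopsis thaliana is represented in the deposited expression table by 152 loci whose identifiers start with ATMG, out of 32833 loci in all. They were taken as a set by identifier alone, though the set was chosen with earlier results of these data known. The data are leaf RNA-seq libraries from wild-type Col-0 plants aged 30 days, grown at 23 °C in days of 12 h of light at 50 µmol m-2 s-1. In addition to untreated plants (control), plants received high light at 600 µmol m-2 s-1, heat at 42 °C, or both together (the combination), each for 7 h. Every group had 3 libraries, made from total RNA after enrichment for poly(A). Nothing in the labels states that the 3 libraries of a group are from different plants, and p-values here reflect library-to-library spread, which may be technical.

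Mitochondria keep a small genome that encodes core subunits of the respiratory chain and of ATP synthase, part of the cytochrome c maturation machinery, some ribosomal proteins, and ribosomal and transfer RNAs. Most other mitochondrial proteins are made from nuclear genes and imported. In plant mitochondria a poly(A) tail is known to mark an RNA for decay, unlike the stabilising tail of a cytosolic mRNA, and most mitochondrial transcripts carry no lasting tail. Libraries enriched for poly(A) therefore sample only a part of this RNA. A larger pool of mitochondrial RNA, a larger tailed fraction of it and more carry-over of RNA without a tail cannot be told apart in these counts.

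The table names the loci by identifier alone, and the reference annotation used here (RefSeq, TAIR10.1) does not carry the ATMG identifiers as genes. Its notes on nuclear loci mention 53 of the 152, 45 of them with a description, as the closest protein match or the source of a pseudogene. The remaining 99 had no description in the sources used here and are given by identifier only, although they held 99.07% of all mitochondrial counts. By these notes, 3 rows belong to complex I (NADH dehydrogenase, the entry point of electrons), 1 to complex III, 1 to complex IV (the terminal oxidase), 4 to complex V (ATP synthase), 3 to cytochrome c maturation and 4 to ribosomal proteins. A further 3 are other described proteins, 5 are partial or chimeric reading frames, 21 are reading frames of unknown product, and 8 are known only as the source of a nuclear pseudogene. Loci of different length could not be compared in level, since no length was available for these identifiers.

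Much of the mitochondrial genome also exists as nuclear DNA, and this bears on every count below. In the TAIR10.1 sequences, 67.64% of all 100-base stretches of the mitochondrial record had an exact copy in the nuclear chromosomes, nearly all in a block of chromosome 2. Of the 33 protein-coding genes of that record, 16 were copied over their whole length, among them atp1, atp9, cob, cox3 and nad3. The genes cox1, nad9, nad4L, atp4 and ccmB had no copied stretch of this length, nor did the 3 ribosomal RNA genes. The files' own build is TAIR10, so these shares describe the reference and not the authors' alignment.

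**Figure D1:**
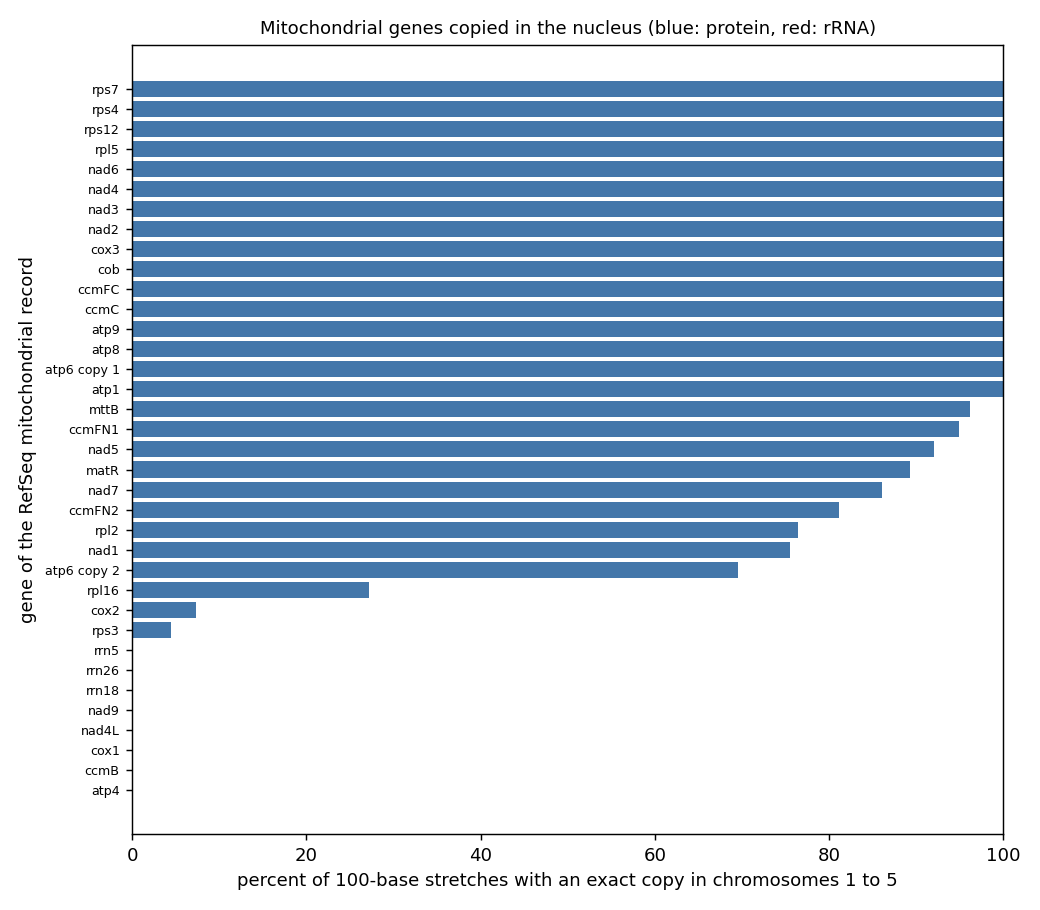
Share of 100-base stretches (x axis, percent) of each protein or ribosomal RNA gene of the RefSeq mitochondrial record (y axis) that occur without mismatch in nuclear chromosomes. A total of 16 protein genes reach 100 percent, and the 3 ribosomal RNA genes stand at 0.

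For 11 genes the whole mitochondrial coding sequence was identical to that of an annotated chromosome 2 locus. The first 120 bases of atp1, which encodes the alpha subunit of ATP synthase, and the complete atp9, which encodes its membrane ring subunit, are shown for both genomes (RefSeq, TAIR10.1, coding strand). The atp1 gene lies on the minus strand of the mitochondrial record and its counterpart AT2G07698 on the plus strand of chromosome 2. Both atp9 copies lie on minus strands, that of AT2G07671 on chromosome 2. Capitals would mark differing bases, and there are none.
Mitochondrial atp1: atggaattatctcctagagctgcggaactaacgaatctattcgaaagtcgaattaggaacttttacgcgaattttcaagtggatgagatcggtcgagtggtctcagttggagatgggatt
Chromosome 2 AT2G07698: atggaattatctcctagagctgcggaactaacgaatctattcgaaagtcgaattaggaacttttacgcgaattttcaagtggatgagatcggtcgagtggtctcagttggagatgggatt
Mitochondrial atp9: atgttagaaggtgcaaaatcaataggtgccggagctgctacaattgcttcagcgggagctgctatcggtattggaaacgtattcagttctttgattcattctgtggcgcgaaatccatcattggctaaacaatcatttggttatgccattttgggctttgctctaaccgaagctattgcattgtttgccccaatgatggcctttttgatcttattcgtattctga
Chromosome 2 AT2G07671: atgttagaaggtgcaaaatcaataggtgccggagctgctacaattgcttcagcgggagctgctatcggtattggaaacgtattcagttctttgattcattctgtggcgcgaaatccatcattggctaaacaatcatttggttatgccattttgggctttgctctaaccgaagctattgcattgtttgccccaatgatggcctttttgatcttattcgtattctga
In TAIR10.1, a read from such a stretch matches both places equally well. Whether this holds in TAIR10, the build the authors aligned to, was not tested. How the authors assigned reads with several matches is not given in the sources used here.

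Values below are normalised counts, meaning reads divided by a size factor per library, and a change is a difference of log2(normalised count + 1) with its SE, a scale on which loci with few reads appear to change less than they do. Libraries held 29814116 to 36938786 recovered reads. The size factors lay between 1.048 and 1.527 in control leaves, high light and heat, but between 0.5353 and 0.6048 in the combination. A normalised count in the combination is thus raised against a share of the library, and both are given where this matters. The leaf markers RBCS1A and RCA, for the small subunit of Rubisco and its activase, had at least 193165 and 87333 normalised counts in every library, while of 4 root genes RHD6 and EXPA7 were at 0 in all 12, LRX1 was at 0 in the control and high light means and at 7.26 and 27.3 in those of heat and the combination, and PYK10 lay between 297 and 1928 in every library. What part cells expressing PYK10 or LRX1 have in the results was not tested. The heat libraries differed among themselves. Transcripts of HSP101, the heat-induced cytosolic disaggregase, stood at 2325, 36624 and 231174 normalised counts under heat libraries 1, 2 and 3, against 243 to 334 in control leaves and 463511 to 1461293 in the combination.

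Mitochondrial rows took up little of any library, and more of it in every heated library than in any unheated library. Their summed share of normalised counts was 0.0050%, 0.0135% and 0.00632% in control libraries 1, 2 and 3, with a mean of 0.00827% ± 0.00458 (SD, n = 3). In high light it was 0.00626%, 0.00666% and 0.00596%, with a mean of 0.00629% ± 0.000347. In heat it was 0.12%, 0.11% and 0.0756%, with a mean of 0.102% ± 0.0231, which is 12.3 times the control mean. In the combination it was 0.11%, 0.115% and 0.0577%, with a mean of 0.094% ± 0.0315, which is 11.4 times control and 14.9 times high light. Both heated groups lay wholly above control and high light, and the exact two-sided permutation test gave p = 0.1 for heat against control, the combination against control and the combination against high light, the smallest value that 3 against 3 libraries allow. High light overlapped control (exact permutation p = 0.8), and the combination overlapped heat (exact permutation p = 0.6). Behind these shares stood 1710 to 4428 reads in control leaves, 2005 to 2447 under high light, 26219 to 44248 under heat and 17677 to 37742 in the combination.

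**Figure D2:**
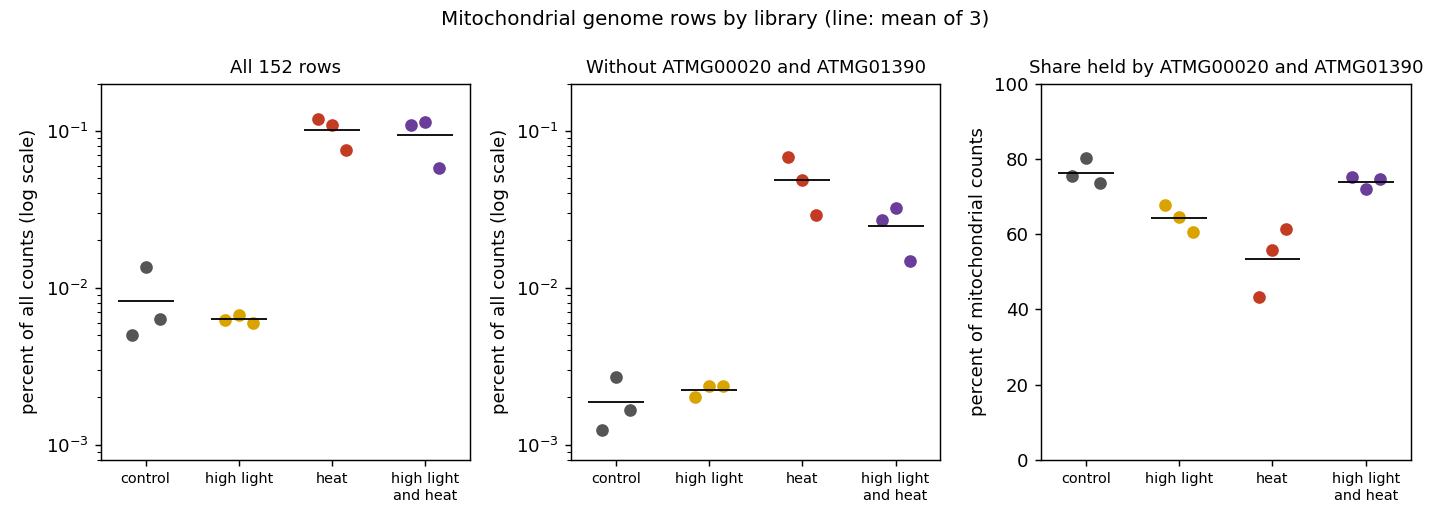
Each point is 1 library and each line a mean of 3, with percent of all normalised counts on log axes for all 152 rows and for those left without ATMG00020 and ATMG01390, and the percent of mitochondrial counts held by those 2 loci on a linear axis. Heated libraries lie above unheated libraries in the first and second panels, and the share of the 2 loci is lowest under heat, at 53.5%.

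A pair of undescribed loci, ATMG01390 and ATMG00020, held a large part of the mitochondrial counts, with the lowest mean under heat. Together they made up 75.3%, 80.2% and 73.6% of mitochondrial counts in control leaves, 67.8%, 64.5% and 60.5% under high light, 43.2%, 55.8% and 61.3% under heat, and 75.2%, 72.1% and 74.5% in the combination. Heat, and also high light, lay below control and below the combination without overlap (exact permutation p = 0.1 each), while the combination overlapped control (exact permutation p = 0.4). Heat library 3, at 61.3%, lay above high light library 3, at 60.5%, so heat and high light overlapped. Without this pair the mitochondrial share was 0.00186% ± 0.000742 in control leaves, 0.00224% ± 0.000199 under high light, 0.0485% ± 0.0194 under heat and 0.0246% ± 0.00895 in the combination. The rise over control was then 26.1 times under heat and 13.2 times in the combination. The combination's mean was 0.508 times that of heat, with overlapping libraries (exact permutation p = 0.2).

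Of the 152 rows, 71 had no read in any of the 12 libraries, which allows up to 3 reads in each. Another 42 had reads but a mean under 10 normalised counts, and 39 were tested. A row could pass this filter through the heated groups alone: every tested row had a mean of at least 10 under heat and in the combination, but only 14 did in control leaves and 19 under high light. Counts over the 39 therefore describe rows that were high under heat. The number of rows with any read was 38 to 47 in control leaves, 49 to 51 under high light, 67 to 73 under heat and 63 to 68 in the combination.

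In heat, all 39 tested rows were higher than in control leaves and 0 lower (limma, Benjamini-Hochberg adjusted p under 0.05), where 24.6% of all 19309 tested loci were called higher and 24.8% lower. The median difference was 4.42, ranging from 2.23 to 7.73, beside a median of -0.00079 over all tested loci. In the combination all 39 were again higher than control and 0 lower, where 29.8% of all tested loci were called higher and 29.7% lower. The median there was 4.33 and the range 1.22 to 6.6, beside -0.0161 over all tested loci. Scaled by library totals instead, 9.46% of all tested loci were called higher in the combination than control and 62.2% lower, with the median of all tested loci moved by -0.943, and 38 of the 39 rows were higher and 0 lower (median 3.39). Against high light the combination was higher for 37 and lower for 0, where 28.1% of tested loci were called higher and 29.3% lower. Scaled by library totals this was 36 higher and 0 lower, where 10.2% of tested loci were higher and 60.9% lower. Heat and the combination were set against the same control libraries. Of the 14 rows with a mean of at least 10 in control leaves, 14 were called higher under heat, 14 in the combination, and 13 when the combination was set against high light. With no filter on the mean, 62 of the 81 rows with reads were called higher under heat and 59 in the combination, where 19.1% and 25.1% of all loci with reads were.

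**Figure D3:**
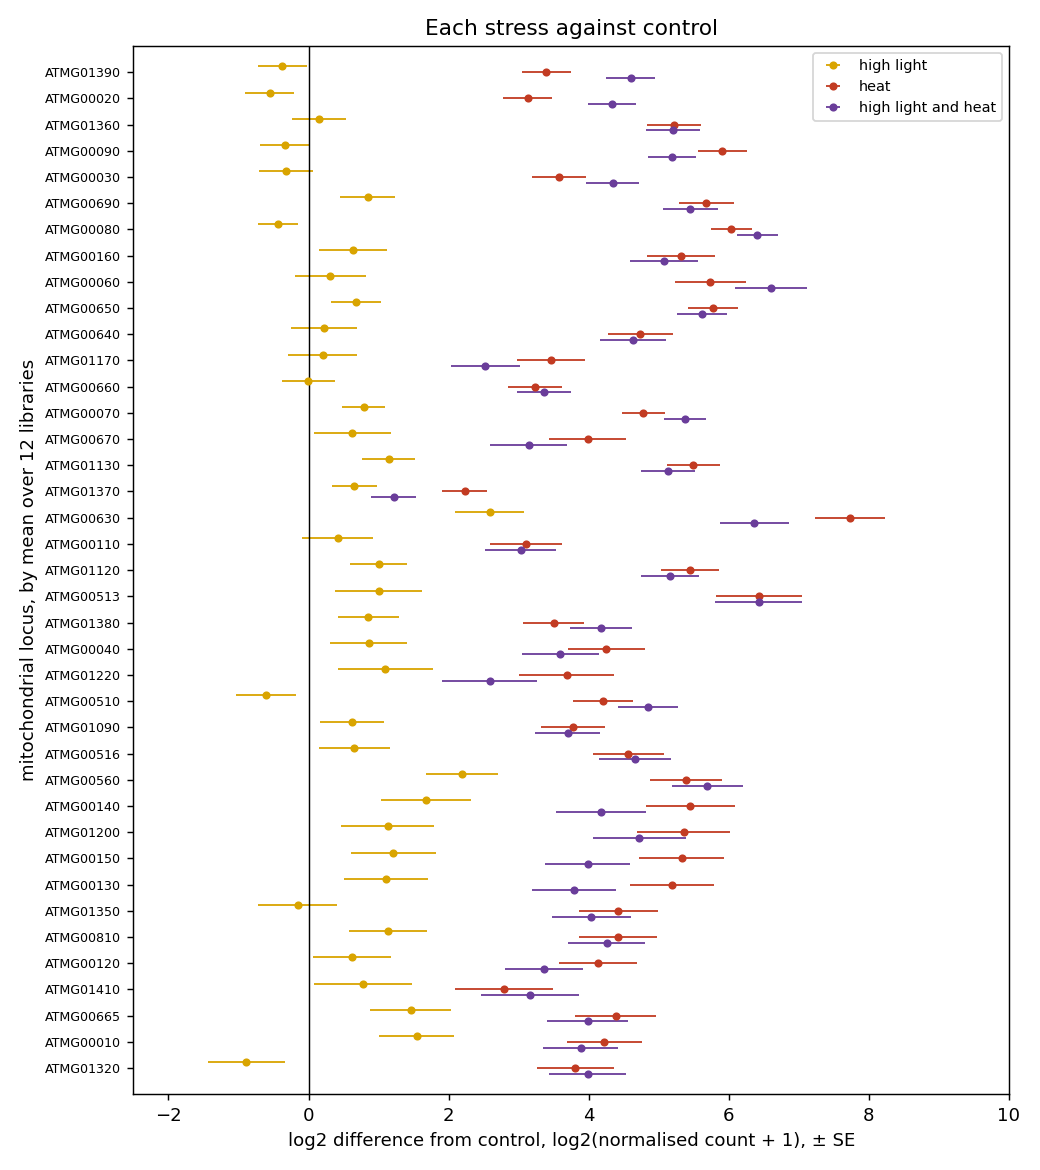
Log2 difference from control ± SE (x axis) of the 39 tested mitochondrial loci, ordered by mean, under high light, heat and the combination. All 39 points of heat and of the combination lie above 0, from 2.23 to 7.73 and from 1.22 to 6.6, while high light spans -0.886 to 2.59.

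The 2 loci with the most reads rose in both heated groups and were higher in the combination than under heat on the normalised scale. ATMG01390 had 574, 1497 and 730 normalised counts in control leaves, 671, 663 and 645 under high light, 7520, 11564 and 8467 under heat, and 22709, 30980 and 12720 in the combination. Its difference from control was 3.40 ± 0.35 under heat (limma, adjusted p = 1.82e-05) and 4.60 ± 0.35 in the combination (adjusted p = 1.04e-06). ATMG00020 had 513, 1300 and 603 in control leaves, 541, 544 and 430 under high light, 5008, 7860 and 6867 under heat, and 17888, 19827 and 9327 in the combination. Its difference was 3.13 ± 0.34 under heat (adjusted p = 2.77e-05) and 4.33 ± 0.34 in the combination (adjusted p = 1.27e-06). In each of the 12 libraries ATMG01390 had 1.12 to 1.56 times the counts of ATMG00020. Neither locus was called under high light, at -0.38 ± 0.35 (adjusted p = 0.445) and -0.56 ± 0.34 (adjusted p = 0.24).

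The 1 described complex I row that was tested had 3 reads at most in any unheated library. ATMG01320, noted as NADH dehydrogenase 2B, had 2.53, 0.788 and 0 normalised counts in control leaves and 0 in all high light libraries. It had 32.1, 31.4 and 15.3 under heat and 26.4, 39.2 and 21.8 in the combination. The heated libraries all lay above the unheated libraries. The difference from control was 3.81 ± 0.55 under heat (limma, adjusted p = 0.000161) and 3.99 ± 0.55 in the combination (adjusted p = 6.78e-05), and the combination was at least 12-fold higher than high light when each high light library was set to 3 reads. AT2G07689, the chromosome 2 locus whose note names it and whose 100-base stretches all occur in the mitochondrial record, was at 0 in all 12 libraries. A low count in these poly(A)-enriched libraries does not show that the gene was not expressed. The mean of 14.1 over all libraries placed ATMG01320 just above the filter. The 2 other complex I rows, ATMG00990 (NADH dehydrogenase 3) and ATMG01275 (NADH dehydrogenase 1A), had no read in any library.

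Rows noted as parts of complexes III, IV and V were empty or nearly so. All of them, and the rows noted as ribosomal proteins, are among the 11 genes with an identical chromosome 2 coding sequence in TAIR10.1. A 0 in such a row therefore does not show that the transcript was absent. Of 26 rows with a noted nuclear locus fully exact at 100 bases, 19 were at 0 in all 12 libraries, against 8 of the 27 other noted rows. The cause was not tested. A row had a note only through a nuclear locus that names it. Other genes of these complexes or for ribosomal proteins, such as cox1 and atp4 without a copied 100-base stretch, may therefore stand among the remaining rows. The 99 rows without a description held 99.07% of mitochondrial counts, so these values do not describe each complex as a whole. ATMG00220 (apocytochrome b, the electron carrier of complex III) and ATMG00730 (cytochrome c oxidase subunit 3) each had reads in 1 of 12 libraries, at 0.655 normalised counts under heat library 1 and 1.87 in combination library 2. The 4 rows noted as ATP synthase subunits, ATMG00410, ATMG00480, ATMG01080 and ATMG01190, were at 0 throughout. So were the 4 noted as ribosomal proteins, ATMG00210, ATMG00290, ATMG00980 and ATMG01270. A row whose note names only a domain, such as ATMG00560, is not counted among them. Of cytochrome c maturation, which attaches heme to c-type cytochromes, ATMG00960 was at 0 in all 6 unheated libraries. It had 14.4, 21.6 and 9.54 under heat and 13.2, 20.6 and 13.4 in the combination, at least 6.1-fold and 6.32-fold above control with each control library set to 3 reads. ATMG00180 and ATMG00900, of the same group, did not exceed 6.61 normalised counts in any library. These 3 rows fell below the filter and were chosen after their values were seen.

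Of the 11 genes with an identical chromosome 2 sequence, reads stood almost wholly under the nuclear locus. The 11 mitochondrial rows summed to 0 in 10 of 12 libraries and to at most 1.87 normalised counts. The 11 chromosome 2 loci summed to 5.91, 14.2 and 6.83 in control leaves, 10.2, 8.41 and 14.2 under high light, 743, 611 and 352 under heat and 364, 514 and 184 in the combination. Nearly all of this came from AT2G07698, the counterpart of atp1, with 5.07, 10.2 and 5.98 in control leaves, 7.05, 7.65 and 10.6 under high light, 697, 574 and 320 under heat and 316, 460 and 154 in the combination. Its difference from control was 6.01 ± 0.42 under heat (limma, adjusted p = 2.35e-06) and 5.18 ± 0.42 in the combination (adjusted p = 1.51e-06), while ATMG01190 was at 0 throughout. Whether these reads came from the mitochondrial gene or from the nuclear copy was not tested. AT2G07698 spans 2665 bases, while the identical atp1 coding sequence has 1524. Of its 100-base stretches, 96.1% occur in the mitochondrial record. Whether its reads lay within the identical sequence was not tested either.

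**Figure D4:**
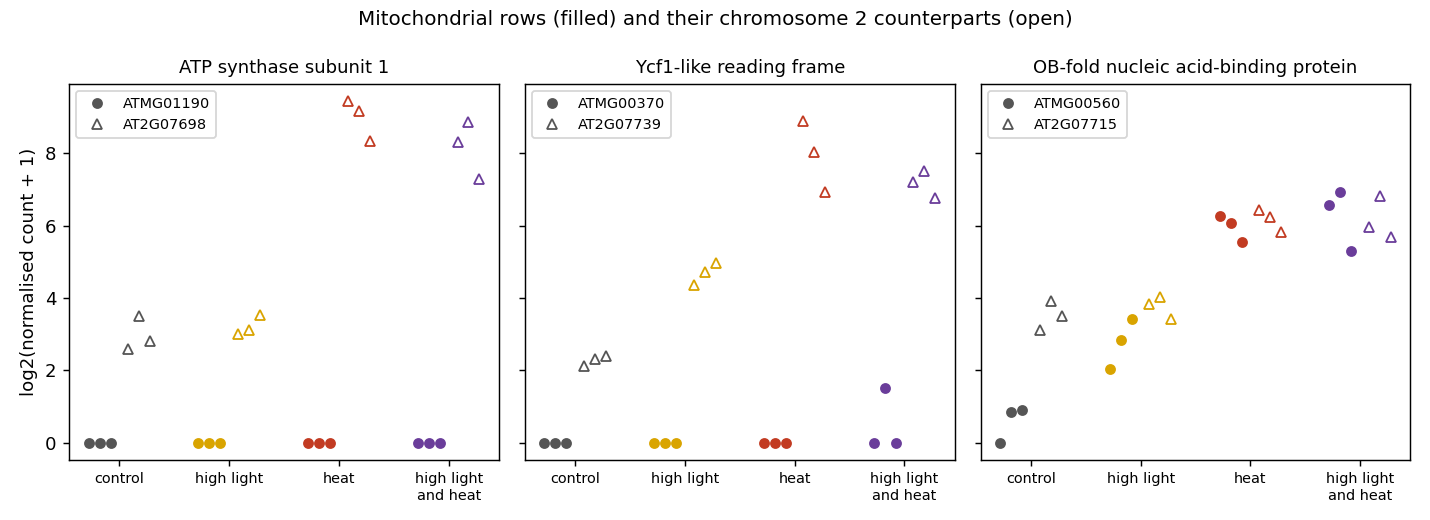
Log2(normalised count + 1) of 3 mitochondrial rows (filled circles) and the chromosome 2 loci whose notes name them (open triangles), 3 libraries per group. AT2G07698 and AT2G07739 rise with heat while ATMG01190 and ATMG00370 stay at or near 0, and for the third pair both loci carry reads.

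Across the nucleus, 119 loci of the table consisted of mitochondrial sequence for at least 90% of their 50-base stretches, 118 of them on chromosome 2. Their summed share of counts was 0.000281% ± 0.000148 in control leaves, 0.000462% ± 8.53e-05 under high light, 0.00717% ± 0.00426 under heat and 0.00237% ± 0.000773 in the combination (SD, n = 3). Only 15 had a mean of at least 10 and were tested. Of these, 15 had a mean of at least 10 under heat and in the combination but 2 in control leaves and 5 under high light, so most passed the filter through the heated groups. All 15 were higher under heat and in the combination than in control leaves, with medians of 4.1 and 3.85, where 24.6% and 29.8% of all tested loci were called higher. With library totals as the scaling 15 and 14 were higher. AT2G07739, whose note names the Ycf1-like reading frame ATMG00370, was also higher under high light. It had 3.38, 3.94 and 4.27 normalised counts in control leaves, 19.6, 25.2 and 30.1 under high light, 475, 260 and 120 under heat and 147, 179 and 107 in the combination. The high light difference was 2.4 ± 0.42 (limma, adjusted p = 0.000748). ATMG00370 itself had 1 read, in combination library 2.

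The remaining described rows that passed the filter rose in both heated groups. ATMG00560 was noted as a nucleic acid-binding protein with an OB fold. That note names a domain and not a gene, so the row may belong to another class, such as ribosomal proteins. ATMG00560 had 0, 0.788 and 0.854 normalised counts in control leaves and 3.13, 6.12 and 9.74 under high light. It had 76, 66.5 and 45.8 under heat and 94.2, 121 and 38.5 in the combination. The 4 groups did not overlap except heat and the combination. The differences from control were 2.19 ± 0.51 under high light (limma, adjusted p = 0.00499), 5.39 ± 0.51 under heat (adjusted p = 1.13e-05) and 5.69 ± 0.51 in the combination (adjusted p = 3.01e-06). Its chromosome 2 counterpart AT2G07715 also carried reads and rose by 2.66 ± 0.37 under heat (adjusted p = 0.00013), with 0.26 ± 0.37 under high light (adjusted p = 0.639).

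ATMG01090, a partial reading frame noted as ATP synthase 9, had 2.53, 7.09 and 5.98 normalised counts in control leaves, 6.26, 7.65 and 10.6 under high light, 128, 69.2 and 55.3 under heat and 64.5, 125 and 51.9 in the combination. Both heated groups lay above the unheated libraries, with differences from control of 3.77 ± 0.46 under heat (limma, adjusted p = 5.18e-05) and 3.70 ± 0.46 in the combination (adjusted p = 3.16e-05). ATMG01220, a reading frame of unknown product, had 3.38, 18.9 and 6.83 in control leaves, 19.6, 19.1 and 15.1 under high light, 199, 152 and 46.7 under heat and 56.2, 112 and 21.8 in the combination. Its rise was 3.69 ± 0.68 under heat (adjusted p = 0.000842) and 2.58 ± 0.68 in the combination (adjusted p = 0.0057), and leaving out control library 2 moved these to 4.28 and 3.17. Without heat library 3 the heat value was 4.31, and without combination library 3 the combination value was 3.19.

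Among undescribed rows, ATMG00630 showed the largest difference under heat. It had 0.844, 0.788 and 0 normalised counts in control leaves, 4.7, 10.7 and 9.74 under high light, 524, 322 and 185 under heat and 82.7, 220 and 98.7 in the combination. It rose with high light as well, by 2.59 ± 0.49 (limma, adjusted p = 0.00135), and by 7.73 ± 0.49 under heat (adjusted p = 1.45e-06) and 6.37 ± 0.49 in the combination (adjusted p = 1.12e-06). ATMG00513 followed under heat, with 0, 0 and 2.56 in control leaves, 0.783, 1.53 and 5.31 under high light, 143, 155 and 101 under heat and 132, 232 and 71.9 in the combination. Its difference from control was 6.43 ± 0.62 under heat (adjusted p = 1.21e-05) and 6.42 ± 0.62 in the combination (adjusted p = 4.94e-06), and 7.04 in each without control library 3, the only control library with reads.

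ATMG00080 rose over a level that every unheated library measured. It had 11, 15 and 11.1 normalised counts in control leaves, 11.7, 9.18 and 6.2 under high light, 798, 1059 and 774 under heat and 1162, 1523 and 798 in the combination. The difference was 6.04 ± 0.29 under heat (limma, adjusted p = 2.49e-07), 6.41 ± 0.29 in the combination (adjusted p = 7.84e-08) and 6.84 ± 0.29 for the combination against high light (adjusted p = 1.11e-07). ATMG00060 had the largest difference of the combination from control, at 6.60 ± 0.51 (adjusted p = 1.08e-06). It had 7.6, 16.6 and 3.42 in control leaves, 11.7, 9.18 and 8.85 under high light, 472, 532 and 401 under heat and 1005, 1554 and 390 in the combination. ATMG00090 had 35.5, 49.7 and 24.8 in control leaves, 18.8, 30.6 and 36.3 under high light, 2282, 2590 and 1750 under heat and 1276, 2070 and 877 in the combination. In these 3 loci the heated and unheated libraries did not overlap, and none was called under high light.

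**Figure D5:**
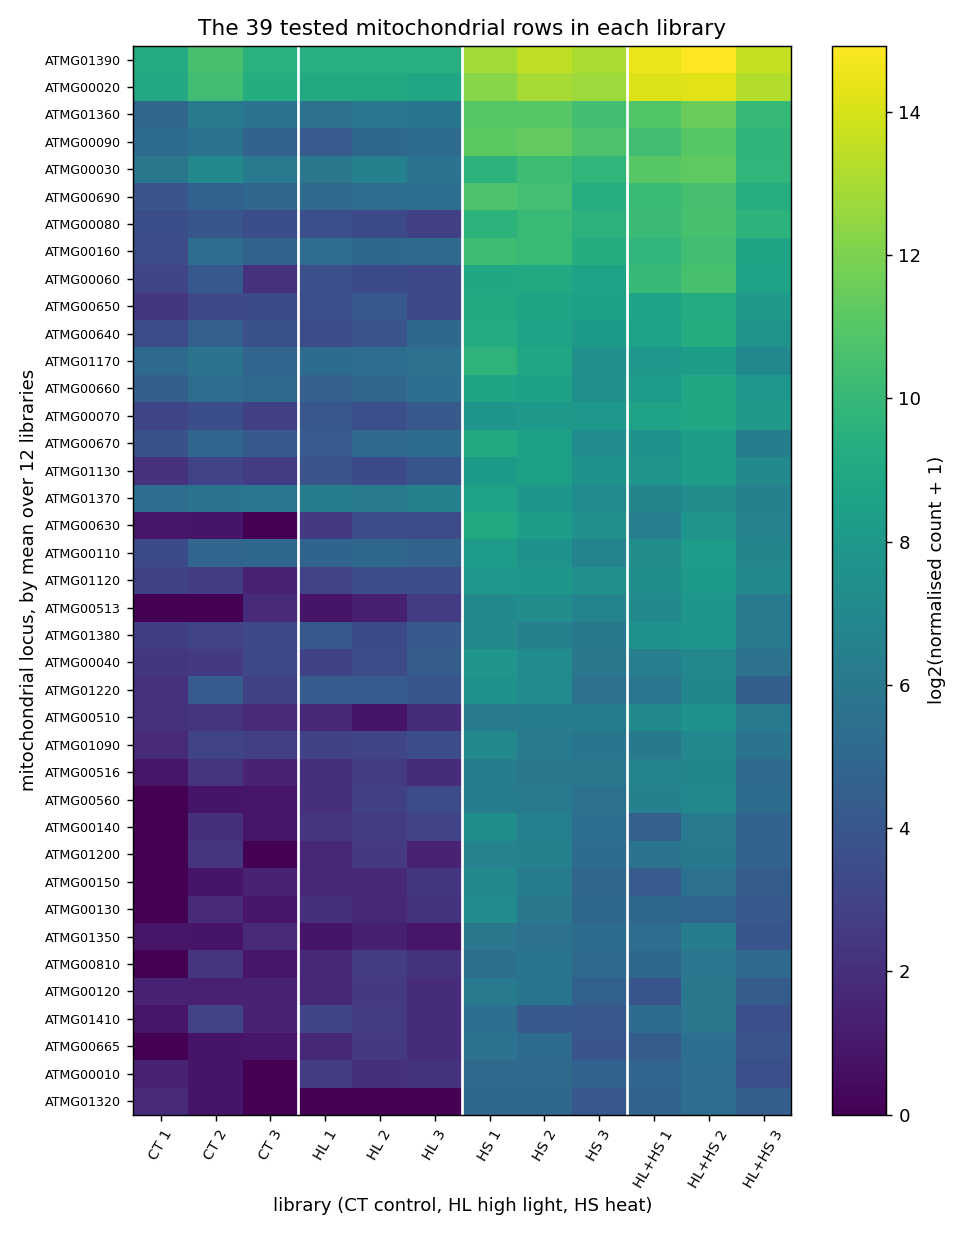
Colour gives log2(normalised count + 1) of the 39 tested mitochondrial loci (rows, by mean) in each of the 12 libraries (columns, CT control, HL high light, HS heat). The step between unheated and heated columns is seen in every row, smallest in ATMG01370, and combination library 3 is lower than its group in most rows.

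The smallest rise belonged to ATMG01370. It had 40.5, 52.8 and 57.2 normalised counts in control leaves, 79.1, 69.6 and 88.5 under high light, 380, 226 and 154 under heat and 108, 161 and 92 in the combination. The difference from control was 2.23 ± 0.32 under heat (limma, adjusted p = 0.000162) and 1.22 ± 0.32 in the combination (adjusted p = 0.00599). Scaled by library totals, the combination's value was 0.276 (adjusted p = 0.526), so that call rested on the size factors. ATMG01370 and ATMG01220 were the rows not called in the combination against high light, at 0.56 ± 0.32 (adjusted p = 0.152) and 1.49 ± 0.68 (adjusted p = 0.0772).

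Rows on either side of the filter are given as a description. Just above it, beside ATMG01320, stood ATMG00010 (mean 15.7) and ATMG00665 (mean 15.8). ATMG00665 had 0, 0.788 and 0.854 normalised counts in control leaves, 2.35, 4.59 and 2.66 under high light, 51.1, 36.8 and 14.3 under heat and 19.8, 43 and 13.4 in the combination. Just below it stood ATMG00520 (mean 9.95), ATMG01400 (9.89) and ATMG00710 (9.26). ATMG00520 was at 0 in all 6 unheated libraries, with 16.4, 18.9 and 20 under heat and 16.5, 39.2 and 8.37 in the combination. The 42 rows with reads below the filter summed to 11.8 ± 1.57 in control leaves, 14.6 ± 2.46 under high light, 236 ± 62.4 under heat and 219 ± 114 in the combination.

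High light alone changed few rows. Of the 39, 4 were higher than control and 0 lower (limma, adjusted p under 0.05), beside 18.1% of all tested loci called higher and 16.6% called lower. Besides ATMG00630 and ATMG00560 these were ATMG00010 and ATMG01130. ATMG00010 had 1.69, 0.788 and 0 normalised counts in control leaves, 5.48, 3.06 and 3.54 under high light, 34.7, 34.1 and 23.9 under heat and 28.1, 41.1 and 11.7 in the combination. Its high light difference was 1.54 ± 0.54 (adjusted p = 0.0398). ATMG01130 had 3.38, 7.09 and 5.12 in control leaves and 13.3, 9.18 and 15.1 under high light, with a difference of 1.14 ± 0.38 (adjusted p = 0.0343). The call of ATMG00010 was lost without control library 2 or 3, any high light library or heat library 2 (1.17 to 1.68, highest adjusted p = 0.156), and that of ATMG01130, named after its value was seen, without control library 1 or 3 or high light library 1 or 3 (0.914 to 1.16, highest adjusted p = 0.135). All 4 had under 10 normalised counts in every control library, and with a pseudocount of 10 in place of 1, 0 of the 39 were called under high light.

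Between the combination and heat, 2 rows were higher and 2 lower (limma, adjusted p under 0.05), against 27.9% of all tested loci higher and 27% lower. The higher rows were ATMG01390, by 1.2 ± 0.35 (adjusted p = 0.0115), and ATMG00020, by 1.2 ± 0.34 (adjusted p = 0.0103), and their heat and combination libraries did not overlap. The lower rows were ATMG00630, at -1.36 ± 0.49 (adjusted p = 0.0326), and ATMG01370, at -1.01 ± 0.32 (adjusted p = 0.0178), both with overlapping libraries. ATMG00630 lost its call without heat library 1 or 2 or combination library 1 or 3 (-1.35 to -0.998), ATMG01370 without heat library 1 (-0.673) or combination library 3 (-0.844), and ATMG01390 without combination library 2 (0.912, adjusted p = 0.0578). The median over the 39 was -0.164, beside 0.00254 over all tested loci. This comparison depended on the scaling. Over all 152 rows the combination's normalised counts were 1.74 times those of heat, but its share of the library was 0.925 times that of heat. With library totals as the scaling, 0 rows were higher and 15 lower than under heat, where 8.17% of all tested loci were higher and 57.5% lower, and the pair's differences were 0.331 for ATMG01390 (adjusted p = 0.406) and 0.335 for ATMG00020 (adjusted p = 0.398). That scaling moved the median of all tested loci by -0.86 in this comparison.

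The interaction asks whether the combination differs from what adding both single responses would give on the log2 scale. Of the 39 rows, 2 lay above that sum and 7 below (limma, adjusted p under 0.05), where 23% of all tested loci lay above and 23.2% below. The 2 above were ATMG00020, at 1.76 ± 0.49 (adjusted p = 0.0109), and ATMG01390, at 1.58 ± 0.50 (adjusted p = 0.0205). Scaled by library totals, 0 rows lay above and 19 below, where 9.39% of all tested loci lay above and 45.6% below, and the pair's values were 0.943 (adjusted p = 0.11) and 0.76 (adjusted p = 0.196), neither past the threshold. The 7 below included ATMG00630, at -3.95 ± 0.70 (adjusted p = 0.000758), ATMG00140, at -2.96 ± 0.90 (adjusted p = 0.0178), and ATMG00150, at -2.55 ± 0.86 (adjusted p = 0.0276).

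ATMG00140 had 0, 3.15 and 0.854 normalised counts in control leaves, 3.91, 5.35 and 7.08 under high light, 172, 84.4 and 42.9 under heat and 23.1, 71 and 25.1 in the combination. ATMG00150 had 0, 0.788 and 1.71 in control leaves, 2.35, 2.29 and 4.43 under high light, 134, 75.5 and 29.6 under heat and 18.2, 46.7 and 20.1 in the combination. In both, high light lay above control without overlap, with no unheated value over 7.08, and the combination lay mostly below heat. Neither locus was called under high light (limma, adjusted p = 0.0582 for ATMG00140 and 0.144 for ATMG00150). Neither was called in the combination against heat (limma, adjusted p = 0.106 and 0.0761 in the same order). The interaction call of ATMG00150 was lost without control library 1, high light library 3, heat library 1 or 2, or combination library 1 or 3 (-2.47 to -2.06, highest adjusted p = 0.0688). That of ATMG01390 was lost without combination library 2 (1.29, adjusted p = 0.0529). Those of ATMG00020, ATMG00140, ATMG00630 and ATMG01370 held in all 12 such fits.

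On normalised counts, the tested mitochondrial rows often shared the highest and the lowest library of a group, in control leaves as well as with heat. Control library 2 was the highest of its group in 23 rows and control library 1 the lowest in 28. For high light, library 3 was the highest in 18 and library 1 the lowest in 19. Such counts are not given here for all tested loci. Heat library 1 was the highest of its group in 27 of the 39 rows and heat library 3 the lowest in 33, which is the reverse of their HSP101 counts. In the combination, library 2 was the highest in 38 and library 3 the lowest in 34. HSP101 stood there at 463511, 1461293 and 997091 in libraries 1, 2 and 3, so the reverse order was not seen in that group. Combination library 2 had the smallest size factor, at 0.5353, which raises its normalised counts. Its mitochondrial share of the library was 0.115%, against 0.11% in combination library 1. Combination library 2 also had the most chloroplast genome counts, at 0.212% of the library, against 0.0422% and 0.0274% in libraries 1 and 3. What part the differences in HSP101 or chloroplast counts have in this spread was not tested.

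Rows of the chloroplast genome, the other organelle genome read in the same libraries, were called in both directions. Of 133 rows, 79 were tested, and 17 (21.5%) were higher and 4 (5.06%) lower than control under heat, with a median of 0.534. The share called higher was near the 24.6% of all tested loci. In the combination 29 (36.7%) were higher and 8 (10.1%) lower, with a median of 0.844, beside 29.8% and 29.7% of all tested loci. Scaled by library totals these were 14 higher and 13 lower, with a median of -0.0842, so the direction of that median rested on the size factors. Their share of the library was 0.0279% ± 0.00496 in control leaves, 0.0253% ± 0.00734 under high light, 0.0536% ± 0.00492 under heat and 0.094% ± 0.103 in the combination. The difference between the 2 genomes was not tested.

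Nuclear genes for the same complexes were called under heat at shares no higher than those of all tested loci, and their counts in the combination depended on the scaling. Of 67 nuclear-encoded subunits of complexes I to V with cytochrome c, all of them tested, 13 (19.4%) were higher and 6 (8.96%) lower than control under heat, with a median of 0.0508, beside 24.6% and 24.8% of all tested loci. Under high light 22 (32.8%) were higher and 0 lower, with a median of 0.417, beside 18.1% and 16.6% of all tested loci. In the combination 56 (83.6%) were higher and 0 lower, with a median of 0.908, beside 29.8% and 29.7% of all tested loci. Scaled by library totals, 9 were higher and 15 lower than control in the combination, with a median of -0.0442, beside 9.46% and 62.2% of all tested loci. No direction of these genes in the combination can therefore be given apart from the scaling.

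By complex, the counts higher in the combination with the deposited size factors were 23 of 25 for complex I, 5 of 8 for complex II (succinate dehydrogenase), 13 of 16 for complex III with cytochrome c, 6 of 9 for complex IV and 9 of 9 for complex V. With library totals they were 0, 2, 5, 0 and 2 in the same order. The values in the combination that follow are on the deposited size factors.

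The largest nuclear changes in heat and in the combination were in complex III with cytochrome c. AT5G25450, a small subunit of complex III, rose from 8.2 ± 2.58 normalised counts in control leaves to 1364 ± 879 under heat and 23142 ± 11306 in the combination (SD, n = 3), or by 7.04 ± 0.57 and 11.2 ± 0.57 (limma, adjusted p = 4.56e-06 and 1.04e-07). CYTC-2, a cytochrome c, rose by 2.69 ± 0.35 under heat and 4.25 ± 0.35 in the combination. In complex I, AT5G11770, a core subunit that holds an iron-sulfur cluster, rose by 1.06 ± 0.26 under heat and 1.37 ± 0.26 in the combination, and the accessory subunit gene AT3G12260 by 0.86 ± 0.21 under heat. The acyl carrier protein gene mtACP2 rose by 1.23 ± 0.16 in the combination. In complex II, SDH4 and SDH6 fell by 0.78 and 0.49 under heat, and SDH3-1 and SDH2-2 rose by 3.39 ± 0.42 and 1.93 ± 0.30 in the combination.

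In complex IV, AT5G57815 rose by 1.2 ± 0.20 under heat, AT3G15640 fell by 1.06, and AT4G37830 and AT1G80230 rose by 1.21 ± 0.17 and 1.16 ± 0.24 in the combination. For ATP synthase, AT1G51650 and AT5G47030 rose by 0.86 ± 0.20 and 0.66 ± 0.22 under heat. AT5G47030 and AT5G08670, the latter for a beta subunit, rose by 1.60 ± 0.22 and 1.3 ± 0.21 in the combination. Each of these rises and falls passed an adjusted p of 0.05 in the same limma fit. With library totals as the scaling, the rises in the combination of AT5G11770 (0.419, adjusted p = 0.0948), mtACP2 (0.283, adjusted p = 0.119), AT4G37830 (0.256, adjusted p = 0.191) and AT1G80230 (0.209, adjusted p = 0.325) were lost in the limma fit. Those of AT5G25450 (10.3), CYTC-2 (3.3), SDH3-1 (2.44), SDH2-2 (0.983), AT5G47030 (0.652) and AT5G08670 (0.352, adjusted p = 0.0452) passed under both scalings.

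Nuclear genes for mitochondrial transcription, splicing and decay were mostly higher in each single stress than in control leaves. Of 19 such genes, 12 were higher and 0 lower under high light (median 1.24), beside 18.1% and 16.6% of all tested loci, and 13 higher and 0 lower under heat (median 0.9), beside 24.6% and 24.8%. In the combination 6 were higher and 4 lower than control (median 0.0614), beside 29.8% and 29.7%. With library totals 1 was higher and 11 lower (median -0.881), against the shift of -0.943 in the median of all tested loci. The interaction lay below the sum of the single stresses for 17 (median -1.87), where 23.2% of all tested loci did, and for 17 with library totals (median -2.67), where 45.6% did. AT5G14580, for the mitochondrial polynucleotide phosphorylase that degrades tailed RNA, had 244 ± 71.4 normalised counts in control leaves, 994 ± 76 under heat and 306 ± 102 in the combination. It rose by 2.06 ± 0.24 under heat (limma, adjusted p = 4.07e-05). AT5G15700, for an RNA polymerase of phage type shared by mitochondria and chloroplasts, rose by 1.82 ± 0.37 under heat (adjusted p = 0.00145). In the combination, nMAT1, for a maturase that splices mitochondrial introns, and ABO5, for a splicing factor of a complex I transcript, each fell by 1.71 (adjusted p = 0.0116 and 0.000889). What part these nuclear changes have in the mitochondrial counts was not tested.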

How the data were processed

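Leaf RNA was extracted with Trizol, cleaned on a column and enriched for poly(A), per the labels' protocols. Per the submitters' processing notes, reads were handled with FastQC 0.11.7, STAR 2.4.0.1 on TAIR10 and DESeq2 1.20.0, and the counting tool, strand and treatment of reads with several matches are not given in the sources used here. The deposited signal values are counts that the authors divided by 1 size factor per library, since 100% of non-zero values were whole multiples of the smallest (within 0.001).

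Loci with a mean of at least 10 (19309 of 32833) were fitted with limma 3.58.1 (limma-trend, R 4.3.3) on log2(value + 1) over all 12 libraries, with Benjamini-Hochberg adjustment over all tested loci and a threshold of 0.05, two-sided. The test was also run on simulated data, and that result is not given here. Alternatives were other pseudocounts, filters, scalings and thresholds, the count tests of edgeR 4.0.16 and of DESeq2 1.42.0 on whole reads, a replicate block and each library left out. Replicate numbers were checked through the correlation of same-numbered deviations from group means. All 3 pairs were over 0.1 between control and high light (0.157 to 0.307) and between high light and heat (0.147 to 0.152), but 0, 1, 0 and 0 of 3 between control and heat, control and the combination, heat and the combination, and high light and the combination. This check comes from the data, since the labels give no shared source. Control and heat had 0 pairs over 0.1 although each had 3 with high light, so the numbers do not form a consistent pairing. Between control and high light the replicate block left the count of calls at 4. In 8 of 12 libraries the best match in other groups had the same number. Shares were compared by exact permutation (scipy 1.17.1). Copies were found as exact matches of 50 and 100 bases, either strand. Values in every library were given for the highest rows of each class, the 3 largest rises and falls of each comparison and the 3 rows nearest the filter on either side, and for nuclear lists the 2 largest called changes. Members, lists and tests were chosen with earlier results of these data known.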

Additional observations from a re-analysis of the deposited data

Results flagged for a closer look

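For 9 of 39 mitochondrial loci the effect of high light differed between leaves at growth temperature and heated leaves. This was tested as the interaction in limma with Benjamini-Hochberg adjustment over all tested loci. It was above 0 for 2 and below 0 for 7, where 23% of all tested loci lay above and 23.2% below. Scaled by library totals, 0 lay above and 19 below, where 9.39% and 45.6% of all tested loci did. ATMG00020 and ATMG01390 were then not called (limma, adjusted p = 0.11 and 0.196). The values that follow are on the deposited size factors. The interaction was above 0 for ATMG00020 (1.76, adjusted p = 0.0109) and ATMG01390 (1.58, adjusted p = 0.0205). It was below 0 for ATMG00630 (-3.95, adjusted p = 0.000758), ATMG00140 (-2.96, adjusted p = 0.0178), ATMG00150 (-2.55, adjusted p = 0.0276) and ATMG00130 (-2.49, adjusted p = 0.029). It was also below 0 for ATMG00560 (-1.88, adjusted p = 0.0487), ATMG01370 (-1.67, adjusted p = 0.0102) and ATMG01130 (-1.50, adjusted p = 0.0373). Leaving out each library in turn, ATMG00020, ATMG00140, ATMG00630 and ATMG01370 were called in 12 of 12 fits, ATMG01390 in 11, ATMG00150 in 6, ATMG00130 and ATMG01130 in 5 and ATMG00560 in 4. ATMG01390 lost its call without combination library 2 (1.29, adjusted p = 0.0529). ATMG00130 and ATMG01130 lost theirs without control library 1 or 3, high light library 1 or 3, heat library 1 or 2, or combination library 3 (ATMG00130 -2.53 to -1.92, highest adjusted p = 0.0727, and ATMG01130 -1.52 to -1.16, highest adjusted p = 0.0929). ATMG00560 lost its call without any single control library, high light library 2 or 3, heat library 1 or 2, or combination library 3 (-2.04 to -1.4, highest adjusted p = 0.116). ATMG00150 lost its call without control library 1, high light library 3, heat library 1 or 2, or combination library 1 or 3 (-2.47 to -2.06).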

How the results depend on the processing

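The rises in heat and in the combination kept their direction for all 39 tested rows under every alternative run. All 39 had a mean of at least 10 under heat, but only 14 did in control leaves. Agreement in direction over these 39 rows therefore does not test how far the filter chose rows high under heat. They numbered 39 in each under pseudocounts of 0.5 and 10, TMM and upper-quartile scaling, size factors from nuclear loci, fits of the groups compared, edgeR and DESeq2 on recovered reads, a threshold of 0.01, an absolute change of at least 1 and every left-out library. The exceptions are library totals (38 in the combination) and the filter itself: with no filter 62, 59 and 58 rows were called in heat, the combination and the combination against high light, and with a mean of 50 it was 25, 25 and 23, since other numbers of rows were tested. Calls in high light (4) were 0 with a pseudocount of 10, 2 with a filter at 50, with edgeR and at an adjusted p under 0.01, and 11 in a fit of the groups compared. Calls between the combination and heat (4) were 7 with a pseudocount of 10, 15 with library totals, 8 with edgeR, 10 with DESeq2 and 0 at an adjusted p under 0.01. Interaction calls (9) were 5 with a pseudocount of 10 or a filter at 50, 19 with library totals and 1 at an adjusted p under 0.01. The cause was not tested.

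With single libraries left out, calls ranged from 2 to 7 in high light (7 without control library 2, and 2 without control library 3 or high light library 1 or 3). They ranged from 2 to 9 between the combination and heat (2 higher and 0 lower without heat library 1, 2 higher and 7 lower without heat library 3, 6 higher and 0 lower without combination library 3, 1 higher and 5 lower without combination library 2), with the median of -0.164 turning to 0.185 without combination library 3, and from 5 to 15 for the interaction (5 without high light library 3, heat library 1 or heat library 2, and 15 without heat library 3). The difference in mitochondrial share between high light and control, -0.00198 percentage points, ranged from -0.00362 to 0.000634 with a library left out, changing sign without control library 2, and was 0.000383 without the 2 highest rows, an alternative chosen after seeing the data. Between the combination and heat, -0.00763 points, it ranged from -0.0207 to 0.0105, changing sign without combination library 3 or heat library 1 (0.00145). The alternative without ribosomal RNA rows was not run, because no source used here names them.

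With the replicate block the calls were 4, 39, 39, 38, 5 and 11 for high light, heat, the combination, the combination against high light, the combination against heat and the interaction, and ATMG00560 lost its interaction call (adjusted p = 0.0595). For named loci, 692 of 720 values with a library left out and 671 of 687 under other settings stayed on the same side of the threshold, and 0 reversed. Depth limits low rows: 1 read was 0.765 to 0.885 normalised counts in unheated libraries, 0.655 to 0.954 under heat and 1.65 to 1.87 in the combination, where the step is coarsest, and in unheated libraries most rows had under 10. Over all tested loci, edgeR on recovered reads called 4997 higher and 4718 lower in heat and 5872 higher and 5484 lower in the combination.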
